A study of Mus musculus with 2 samples.

Results

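The antioxidant, peroxiredoxin and thioredoxin genes are 39 mouse genes listed by name for their part in handling reactive oxygen species and protein thiols. They were found on the arrays by gene symbol: 35 of the 39 had at least 1 probe set (a group of short probes that together read a stretch of transcript) annotated to that gene alone, out of 18193 genes with such a probe set. Prdx1, Prdx5, Prdx6 and G6pdx had none and are not described. The genes were read by 76 probe sets, of which 67 lay above the median level, an intensity of about 52.4, which is used here as a level filter. Where a gene had several probe sets, the values given first come from the highest on average. By these, 34 of the 35 genes passed the filter; Gpx7 did not.

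Total RNA came from C2C12 cells, a mouse myoblast line that fuses into myotubes when serum is lowered, grown with 10% fetal bovine serum and then kept for 5 days in medium with 2% horse serum. The shLrrfip1a group is 1 array of cells with a short hairpin RNA against Lrrfip1, which encodes a nucleic acid-binding protein, and the control group is 1 array of cells whose hairpin the sample labels spell shLCUI. Both groups are the same line on the same schedule, and the labels do not say whether a hairpin line was a clone or a pool. With 1 array per group there is no spread between cultures, no standard error and no test, so every difference below is a description of 2 arrays. Differences are shLrrfip1a minus control on the scale of log2(intensity + 16), where 16 is a constant that damps noise at low intensity and makes the change of dim genes look smaller.

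Cells keep hydrogen peroxide and oxidised thiols low through parallel systems. Glutathione peroxidases use glutathione and peroxiredoxins mostly use thioredoxin, both of which are recycled with NADPH, while superoxide dismutases convert superoxide to hydrogen peroxide, and catalase breaks hydrogen peroxide down directly. The transcription factor NRF2, encoded by Nfe2l2, binds antioxidant response elements when oxidants or electrophiles stop KEAP1 from sending it to degradation. In skeletal muscle, mitochondria and contraction are sources of oxidants, and NRF2 activity is set largely at the level of its protein.

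The 2 arrays were close as deposited, with median intensities of 53.5 for shLrrfip1a and 51.4 for control, and Lrrfip1 read 62.2% to 70.6% of control over its 3 probe sets. Markers of the labelled cell type were present. All 8 genes of differentiated muscle, including Ckm, Acta1, Myh3 and Myog, passed the filter, with summed intensities of 15207 and 16476 in shLrrfip1a and control. Passing the filter does not set this cell type apart, because markers of other types passed too. Of the markers of undifferentiated myoblasts 3 of 4 passed (sums 1845 and 2348), of macrophages 3 of 5 (388 and 335), of fibroblasts 5 of 5 (9336 and 9754), of adipocytes 0 of 4 (100.3 and 95.7) and of endothelium and epithelium 1 of 5 (260.4 and 162); no marker was at the deposited floor of 1. Single markers differed more than these sums. Dpt, of fibroblasts, read 48.4 and 197 (-1.73), with a list median of -0.35. Kdr, of endothelium, read 118 and 48.0 (1.07), and Myf5, of myoblasts, read 82.8 and 159 (-0.83). The lower arrays of Dpt and Kdr lay under the filter intensity, so each passed through the array where it was high. With a constant of 64 Dpt came to -1.22, Kdr to 0.70 and Myf5 to -0.61. The part of these cell types in the results was not tested, and in bulk RNA fewer cells of a type and less RNA per cell cannot be told apart.

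None of the 34 antioxidant genes differed by 2-fold in either direction, where 1.35% of all 11448 genes above the filter did (0.664% higher and 0.69% lower). Gpx3, a secreted glutathione peroxidase, was the 1 gene past 1.5-fold, higher in shLrrfip1a, against 2.34% of all genes. When the arrays were scaled to the spike-in controls, which raises all genes alike, 6 genes were past 1.5-fold, all higher (Gpx3, Mt1, Cat, Pgd, Mt2 and Nqo1), against 5.43% of all genes. Of the 34 genes, 20 were higher and 14 lower in shLrrfip1a, where 50.7% of all genes were higher. Their median difference was 0.05, with quartiles at -0.13 and 0.28, beside a median of 0.00 and quartiles of -0.15 and 0.16 for all genes. At a size of 1.2-fold, which was set after the values were seen, 10 genes were higher and 4 lower, that is 29.4% and 11.8% of the 34, against 13.8% and 13.5% of all genes. The 10 were Gpx3, Mt1, Cat, Pgd, Mt2, Nqo1, Txnrd1, Sod3, Txn2 and Gclm, and the 4 were Txnip, Glrx, Gclc and Hmox2. With spike-in scaling the split at this size was 15 higher and 1 lower (Txnip), against 33.2% and 5.5% of all genes.

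**Figure D1:**
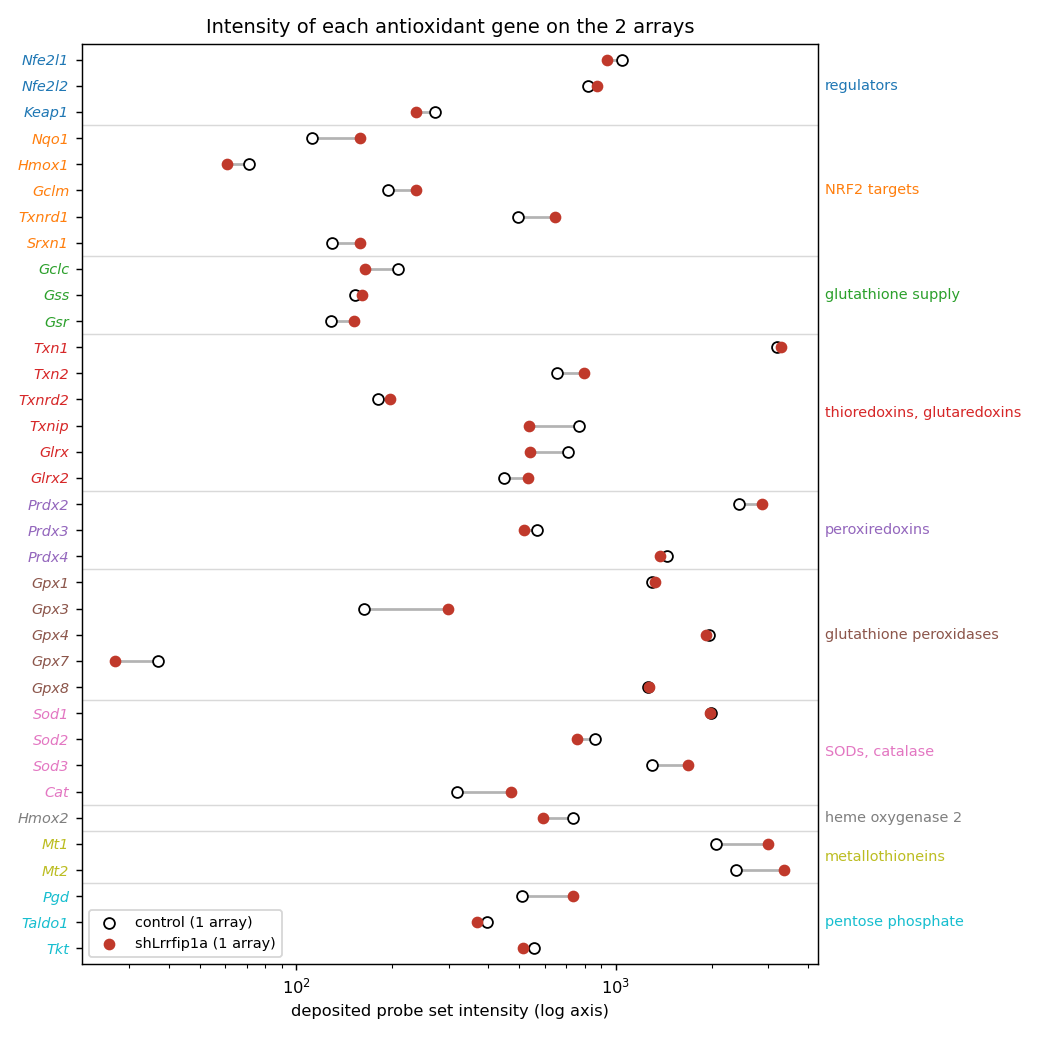
Deposited intensity (log axis) of the probe set that represents each of the 35 measured genes, by role, on the control array (open circles) and the shLrrfip1a array (filled circles). The widest gap is that of Gpx3, at 298 against 163, and most pairs lie close together; levels of different genes cannot be compared on this axis because each probe set has its own response.

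**Figure D2:**
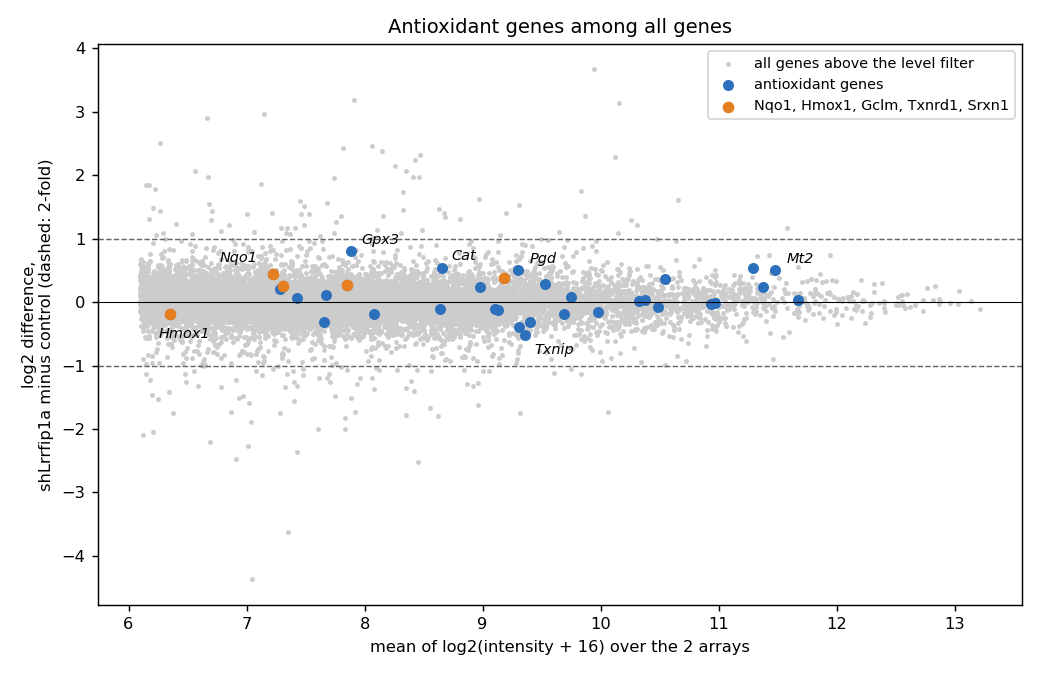
Difference against mean level for all 11448 genes above the filter (grey), the antioxidant genes (blue) and the NRF2 targets Nqo1, Hmox1, Gclm, Txnrd1 and Srxn1 (orange); dashed lines mark 2-fold. All 34 antioxidant genes lie between the dashed lines, from -0.51 for Txnip to 0.81 for Gpx3.

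The spread between probe sets of the same gene gives a scale for these small differences. It mixes array noise with effects of the stretch each probe set reads, and does not measure the spread between cultures. Over 4853 genes with several probe sets above the filter, the differences of a gene's probe sets spanned a median range of 0.18, with an upper quartile of 0.31. For the 22 antioxidant genes with several such probe sets the median range was 0.13. In 17 of the 22, or 77.3%, the probe sets shared a direction, 10 higher and 7 lower, against 60.3% of all such genes. The 5 genes whose probe sets disagreed in direction were Txnrd1, Gss, Txnrd2, Prdx4 and Sod1.

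**Figure D3:**
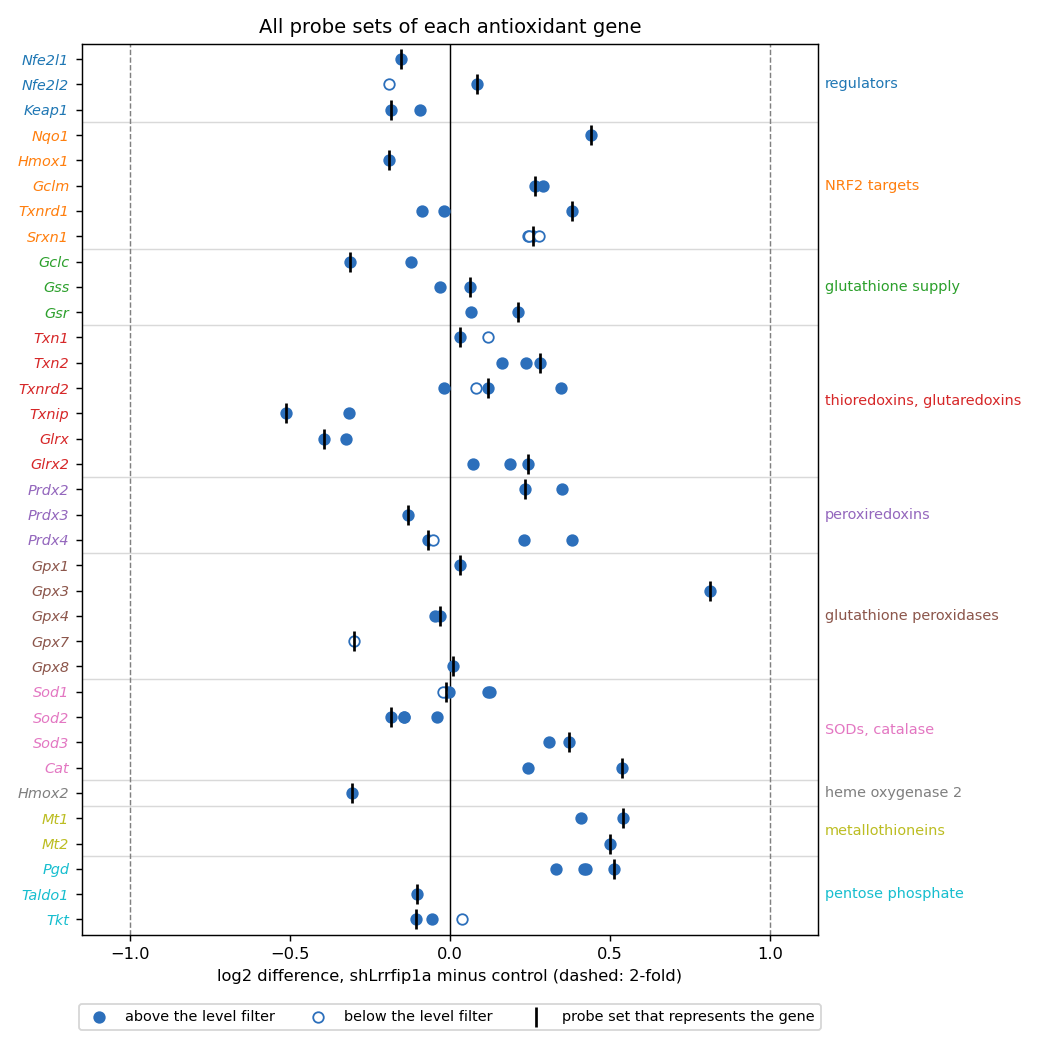
Difference of all 76 probe sets of the 35 genes, by role, with probe sets above the level filter filled, those below it open, and a black bar on the probe set that represents the gene. Txnip, Glrx, Sod2 and Gclc lie left of 0 and Cat, Mt1, Pgd, Sod3, Txn2 and Gclm right of 0 on every probe set, whereas Txnrd1 and Prdx4 straddle 0.

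The regulators differed little. Nfe2l2 read 872 on the shLrrfip1a array and 821 on the control array, a difference of 0.09; its other probe set lay below the filter at 17.7 and 22.5. Keap1, the adaptor that hands NRF2 to the ubiquitin ligase, read 238 and 272 (-0.18) and was lower on its other probe set too (70.6 and 76.3). Nfe2l1, a related factor known for control of proteasome genes, read 939 and 1046 (-0.15). All 3 lay within 1.2-fold, and the sign of Nfe2l1 turned to 0.01 when the arrays were scaled to the spike-in controls.

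The NRF2 targets set apart were higher in 4 of 5 cases, against 50.7% of all genes, with a median difference of 0.27. The median was 0.03 for the other 29 antioxidant genes, of which 16 were higher and 13 lower, and 0.00 for all genes. The other 29 were not screened for further NRF2 targets, so these medians do not compare targets with non-targets. Nqo1, a quinone reductase often used as a readout of NRF2, read 158 on the shLrrfip1a array and 112 on the control array. Its difference of 0.44 was equalled or passed by 4.95% of all genes, and it rests on 1 probe set. Gclm, the modifier subunit of the enzyme that starts glutathione synthesis, read 237 and 194 (0.27), with 0.29 on its other probe set. Srxn1, which repairs over-oxidised peroxiredoxins, read 158 and 129 (0.26), and its 4 probe sets ranged from 0.24 to 0.28, with those 2 that lay below the filter inside this range. For Gclm and Srxn1 the probe sets thus spanned less than the typical gene's 0.18.

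Txnrd1, the cytosolic thioredoxin reductase, read 648 and 493 (0.38) on its representing probe set. Its other probe sets, close to the filter level, read 63.0 against 67.9 (-0.09) and 64.1 against 65.1 (-0.02), so its mean over probe sets was 0.09. Hmox1, the inducible heme oxygenase and also an NRF2 target, was the 1 of the 5 that was lower, at 60.5 and 71.4 (-0.19), and it lay close to the filter level. The directions of these 5 genes were the same under all 4 other scalings, although Hmox1 came to -0.03 with spike-in scaling.

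Promoters were searched for the core of the antioxidant response element, TGACNNNGC, on either strand, in RefSeq promoter sequences of 300 bases (250 before and the rest from the start of the transcript) on GRCm38.p6. Of the 39 genes, 34 had an entry, and 9 of these (G6pdx, Gclm, Mt2, Nfe2l2, Pgd, Prdx1, Sod1, Srxn1 and Txnrd1), or 26.5%, held the core, against 14.0% of 27025 genes with an entry. The stretches of 150 bases directly upstream of the start are shown for Gclm (chr3:122245407-122245556, plus strand) and Txnrd1 (chr10:82859056-82859205, plus strand), the members of the NRF2 targets set apart whose match lies upstream. Capitals mark the core, which in both reads on the opposite strand.
Gclm: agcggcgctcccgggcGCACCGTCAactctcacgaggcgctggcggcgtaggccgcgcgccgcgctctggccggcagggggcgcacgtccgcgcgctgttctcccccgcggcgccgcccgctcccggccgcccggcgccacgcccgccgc
Txnrd1: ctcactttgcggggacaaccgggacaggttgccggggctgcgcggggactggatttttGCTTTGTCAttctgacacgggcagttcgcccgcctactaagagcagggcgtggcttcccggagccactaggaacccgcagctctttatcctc
The match lies 134 to 126 bases upstream of the start in Gclm, where it overlaps a match to the metal core TGCGCNC, and 92 to 84 bases upstream in Txnrd1, which has 3 starts and the match at 1 of them. Srxn1 held its match at or after the start. Nqo1, whose difference was the largest of the 5, had an entry without these letters in the 300 bases searched, and Hmox1 had no entry. Sequence further upstream was not searched, so a missing match does not show that a gene lacks the element. A match describes letters and is not shown to be a binding site.

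Among the other genes of glutathione supply, the catalytic subunit went the other way from the modifier. Gclc read 165 on the shLrrfip1a array and 208 on the control array (-0.31, with -0.12 on its other probe set), whereas its partner Gclm was higher on every probe set. Gss, which completes glutathione, read 160.5 and 153 (0.06, -0.03 on its other probe set). Gsr, which reduces glutathione disulfide with NADPH, read 152 and 129 (0.21, 0.07 on its other probe set). The signs of the 3 genes held under the 4 other scalings.

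Members of the thioredoxin system differed in both directions. Txnip, an arrestin-like protein that binds thioredoxin and limits glucose uptake, had the lowest difference of all 34 genes. It read 534 on the shLrrfip1a array and 768 on the control array (-0.51), and its other probe set read 273 and 344 (-0.32). A difference this low or lower was found for 3.49% of all genes. Glrx, the cytosolic glutaredoxin that removes glutathione from proteins, read 538 and 712 (-0.39) and 230 and 292 (-0.33), while Glrx2, its mitochondrial counterpart, read 533 and 448 (0.24) and was higher on all 3 probe sets. The 2 glutaredoxin genes thus lay on opposite sides of 0 on all of their probe sets, and those that represent the genes did so under the 4 other scalings.

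The thioredoxins themselves were level or slightly higher. Txn1, the cytosolic thioredoxin, read 3288 and 3213 (0.03), and this sign turned under median centring and quantile normalization. Txn2, the mitochondrial form, read 798 and 653 (0.28) and was higher on all 3 probe sets, the lowest of them at 0.16. Txnrd2, the mitochondrial reductase, read 197 and 180 (0.12), with -0.02 and 0.35 on its other probe sets above the filter. So the mitochondrial members Txn2 and Glrx2 were higher on every probe set, whereas Txnrd2 was not.

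Of 6 listed peroxiredoxins 3 were measured, and all 3 stayed within 1.2-fold. Prdx2, a cytosolic enzyme, read 2868 on the shLrrfip1a array and 2435 on the control array (0.23) and was higher on its other probe set (0.35). Prdx3, the mitochondrial enzyme, read 518 and 569 (-0.13). Prdx4, of the endoplasmic reticulum, read 1380 and 1448 (-0.07) on its representing probe set but 623 and 474 (0.38) and 521 and 441 (0.23) on others, and its mean over 4 probe sets, including 1 below the filter at -0.05, was 0.12. No direction can be given for Prdx4, and the signs of Prdx3 and Prdx4 turned with spike-in scaling.

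Among glutathione peroxidases, the secreted enzyme had a larger difference than the cellular ones. Gpx3 read 298 on the shLrrfip1a array and 163 on the control array, 183% of control, a difference of 0.81 that 1.13% of all genes equalled or passed. It has 1 probe set, so no second reading of the transcript exists, and its difference ran from 0.76 to 0.97 over the 4 other scalings and was 0.67 with a constant of 64. Gpx1, the main cytosolic enzyme, read 1326 and 1297 (0.03). Gpx4, which reduces lipid hydroperoxides and protects from ferroptosis, read 1917 and 1958 (-0.03), and Gpx8, a membrane protein of the endoplasmic reticulum, read 1274 and 1265 (0.01).

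The differences of Gpx1, Gpx4 and Gpx8 lay inside the typical range between probe sets of a gene, and each changed sign under at least 1 of the 4 scalings. Gpx7, also of the endoplasmic reticulum, read 27.1 and 37.0, below the filter on both arrays.

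The extracellular member was also the higher one among the superoxide dismutases. Sod3, which is secreted and binds heparan sulfate, read 1684 on the shLrrfip1a array and 1298 on the control array (0.37), and 139 and 109 (0.31) on its other probe set. Sod1, the cytosolic copper and zinc enzyme, read 1976 and 1994 (-0.01), and its other probe sets above the filter read 1631 and 1493 (0.13), 130.6 and 130.7, and 80.7 and 73.1 (0.12). Sod2, the mitochondrial manganese enzyme and an NF-kB target, read 759 and 865 (-0.18) and was lower on all 4 probe sets. Cat, the peroxisomal catalase, read 470.3 and 319 (0.54) and 174 and 144 (0.24), so both of its probe sets were higher but differed in size. For Cat, 3.01% of all genes had a difference as high. The signs of Sod2, Sod3 and Cat held under the 4 other scalings, that of Sod2 at -0.02 with spike-in scaling, and that of Sod1 did not.

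Hmox2, the constitutive heme oxygenase, read 593 on the shLrrfip1a array and 737 on the control array (-0.31), on 1 probe set. With Hmox1 at -0.19, both heme oxygenase genes were lower, and this sign held under the 4 other scalings.

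The metallothioneins, small cysteine-rich proteins that bind zinc and copper and scavenge radicals, were higher together. Mt1 read 3003 on the shLrrfip1a array and 2059 on the control array (0.54), from a probe set whose name marks it as shared between related transcripts. On the Mt1 probe set without that mark the values were 303 and 224 (0.41). Mt2, on its 1 probe set, read 3375 and 2383 (0.50). Differences at least as high were found for 2.98% of all genes for Mt1 and 3.68% for Mt2, and the directions held under the 4 other scalings, the lowest values being 0.48 and 0.44. Mt1 and Mt2 are closely related genes, and which transcripts the shared probe set binds was not analysed here.

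Their promoters are shown because both genes are known to be driven by MTF1, the zinc-sensing factor that binds metal response elements. The cores searched were TGCACNC and TGCGCNC on either strand, and capitals mark them. The Mt1 stretch is the 150 bases upstream of the RefSeq start (chr8:94178939-94179088, plus strand) and the Mt2 stretch the 250 bases upstream (chr8:94172368-94172617, plus strand), both on GRCm38.p6.
Mt1: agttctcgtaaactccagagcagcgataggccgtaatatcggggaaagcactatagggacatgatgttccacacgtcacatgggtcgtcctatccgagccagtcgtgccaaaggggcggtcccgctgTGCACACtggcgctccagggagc
Mt2: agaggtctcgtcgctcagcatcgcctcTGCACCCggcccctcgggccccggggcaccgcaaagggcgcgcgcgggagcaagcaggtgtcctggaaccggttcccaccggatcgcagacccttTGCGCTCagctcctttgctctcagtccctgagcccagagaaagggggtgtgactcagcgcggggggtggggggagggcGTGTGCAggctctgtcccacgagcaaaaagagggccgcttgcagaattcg
Mt1 held 1 match in this stretch and 2 at or after the start, and Mt2 held 3 upstream and 1 at or after the start. Mt2 also held the antioxidant core 79 to 71 bases upstream. At least 1 of the metal cores was found in 12 of the 34 antioxidant genes with an entry, or 35.3%, and in 28.2% of all 27025 genes, so these letters are common. The 14 genes of metal handling above the filter had a median of -0.004, and 7 lay above 0, against 50.7% of all genes. Slc30a1, a zinc exporter in this list that is also known as an MTF1 target, read 212 and 138 (0.56). Its mean over probe sets was 0.43, and Mtf1 itself read 143.2 and 142.5 (0.01).

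Of the pentose phosphate enzymes, which supply NADPH and ribose, Pgd was the 1 that was higher. Pgd, the second NADPH-producing step, read 735 on the shLrrfip1a array and 510.1 on the control array (0.51). Its 4 probe sets were all higher, at 0.33 to 0.51, the lowest being the 1 that is not marked as able to bind unrelated transcripts. Taldo1 and Tkt, of the branch that returns pentoses to glycolysis, read 368 and 396 (-0.10) and 515 and 555 (-0.11). These 2 stayed within 1.2-fold and turned to 0.06 and 0.05 with spike-in scaling.

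**Figure D4:**
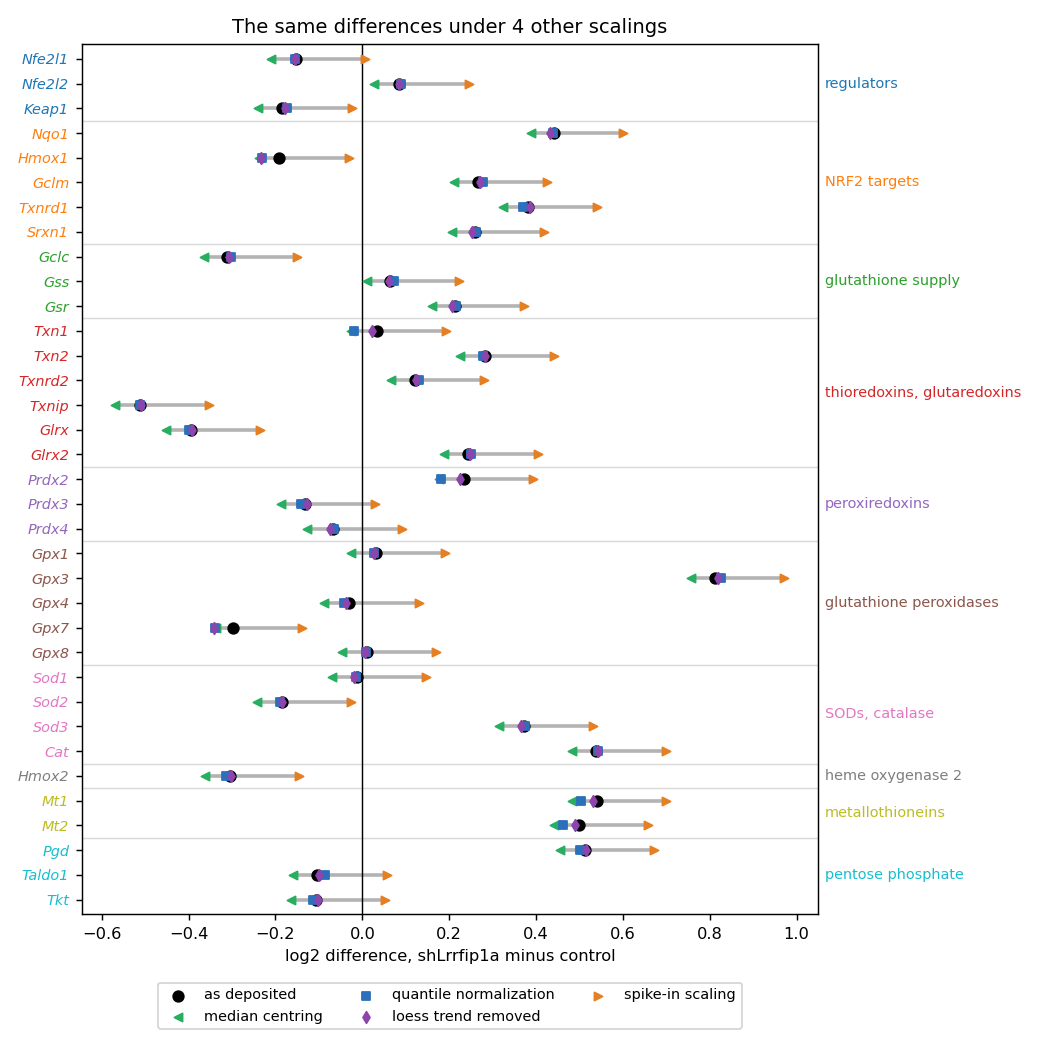
Difference of each of the 35 genes as deposited (black) and under median centring, quantile normalization, loess trend removal and scaling to the spike-in controls. Spike-in scaling moves every gene right by 0.16, and 24 of the 34 genes above the filter keep their sign under all 4.

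Scaling to the bacterial and phage spike-in controls raised the median of all genes from 0.00 to 0.16, and 27 of the 34 genes then lay above 0. Relative to the median of all genes the 34 genes did not move. The share of all genes above 0 was not counted on this scale, so the 27 have no background beside them. The 10 genes whose sign was not kept under all 4 other scalings were Nfe2l1, Txn1, Prdx3, Prdx4, Gpx1, Gpx4, Gpx8, Sod1, Taldo1 and Tkt. All 14 genes past 1.2-fold kept their direction, but for spike-in scaling and median centring the size cut had already settled this. Spike-in scaling moved genes by 0.16, and median centring took the median of all genes to -0.05. The smallest difference among the 14 was larger, at 0.27 (Gclm). The held signs given above for Gclc, Glrx, Cat, Sod3, Hmox2, Mt1 and Mt2, all among the 14, are therefore no evidence of robustness to these scalings.

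Related genes that are not among the 39 were taken from 11 lists chosen with earlier results of these data known. Of 138 such genes above the filter 6 were past 2-fold, 3 in each direction, or 4.35% beside 1.35% of all genes, and their median difference was -0.01. For 2 of the 6, Aldh3a1 and Nox4, the lower array lay under the filter intensity, so they passed the filter through the array where they were high, and nothing is read from the excess. Among 15 other NRF2 target genes 2 were past 2-fold, both higher, and the list median was 0.25: the aldehyde dehydrogenase Aldh3a1 read 159 and 44.1 (1.54; 1.04 with a constant of 64), and the glutathione transferase Gstm1 read 638 and 242 (1.35), on a probe set marked as able to bind unrelated transcripts (0.99 as the mean over its probe sets, under 2-fold). In the same list Gsta4, another transferase, read 395 and 216 (0.82). In all, 10 of the 15 genes lay above 0, against 50.7% of all genes. The lowest of the 15 was Akr1b8, at 628 and 973 (-0.62).

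Of 12 partners and repressors of NRF2 none reached 2-fold (median 0.05), where 1.35% of all genes did. At that share none is the usual count for each of the related lists, so a count of none says little. The small Maf genes Maff (67.9 and 118, -0.68) and Mafg (265 and 378, -0.49), which encode partners of NRF2 on DNA, were the lowest, and the coactivator gene Crebbp was the highest (0.46). Of 20 genes of glutathione transfer and turnover, Gstm1 was again the 1 past 2-fold, and the membrane-bound transferase Mgst1 came next at 1000.3 and 494 (0.996, 0.48 as the mean over its probe sets); the list median was -0.01.

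Of 25 proteins with a thioredoxin fold or a role in disulfide formation 2 were at least 2-fold lower and none higher (median -0.03). Among all genes 0.69% were lower and 0.664% higher by that size. The 2 were Ero1a, the oxidase that drives disulfide formation in the endoplasmic reticulum (337 and 732, -1.08), and the disulfide isomerase Pdia5 (143 and 318, -1.07). Both came to under 2-fold with spike-in scaling, at -0.92 and -0.91, and with a constant of 64, at -0.99 and -0.88, and the mean over the probe sets of Ero1a was -0.85. Next was the membrane thioredoxin Tmx3 (-0.62).

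Of 4 arrestin-domain and MondoA genes above the filter, the family and regulators of Txnip, none was above 0, against 50.7% of all genes. Arrdc3 read 223 and 310 (-0.45), with Mlxip at -0.19, Mlx at -0.12 and Arrdc1 at -0.06. With spike-in scaling Mlx and Arrdc1 turned to 0.04 and 0.10, and Arrdc1 came to 0.08 as the mean over its probe sets. Of the genes of this list below the filter, Mlxipl (0.57) and Arrdc2 (0.06) were higher and Arrdc4 (-0.19) lower. Of 14 genes of metal handling, Cp, the copper oxidase ceruloplasmin, was the 1 past 2-fold (802 and 375, 1.06; under 2-fold at 0.98 with a constant of 64 and 0.85 as the mean over its probe sets), and Slc39a10, a zinc importer, read 134 and 282 (-0.99, -0.44 as the mean over its probe sets). Of 14 further genes of NADPH supply none reached 2-fold (median -0.01), the largest being the mitochondrial folate enzyme Aldh1l2 (-0.57), Mthfd1 (0.44) and Idh2 (-0.37).

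**Figure D5:**
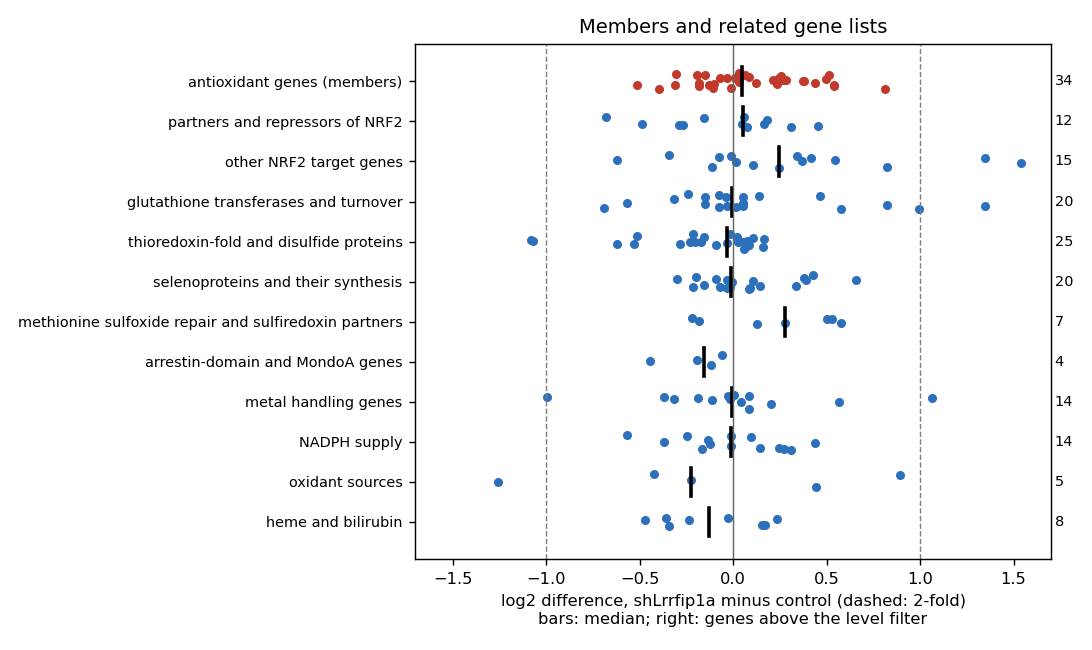
Difference of each gene above the filter in the antioxidant set (red) and in 11 related lists (blue), with black bars for medians, the number of genes at the right and dashed lines at 2-fold; vertical jitter has no meaning. The antioxidant genes stay inside the dashed lines, and genes past 2-fold appear in the lists of other NRF2 targets, glutathione transferases, disulfide proteins, metal handling and oxidant sources.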

How the data were processed

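RNA of 2 samples was labelled with biotin and read on Affymetrix mouse arrays, per the labels' protocols. The authors deposited linear intensities, 1 for each probe set on each array, with a floor of 1. Their summary method, background correction and scaling are not stated in the labels or the file. Of 45101 probe sets, 64 are controls, and 34945 others had a single symbol in the platform annotation, 932 had several and 9160 had none; all 39 symbols are in the RefSeq gene table.

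Values were taken as log2(intensity + 16) with pandas 2.3.3, numpy 2.4.6, statsmodels 0.14.6 and matplotlib 3.10.9 in Python 3.11.15. Levels are those of the probe set with the highest mean log2 value. The filter was the median over probe sets of that mean. No test was possible; a call is a size of 2-fold. The calculation was tested on simulated data. Alternatives were 4 scalings, 2 filters, pseudocounts of 1 and 64, the mean over probe sets, and sizes of 1.5-fold and 3-fold; the size of 1.2-fold, smaller sizes combined with each scaling, and a choice of probe sets without the s and x suffixes were added after seeing the data. Genes outside the 39 were named if past 2-fold or among the 3 largest of their list. Mtf1, Arrdc1, Akr1b8, Mlxipl, Arrdc2 and Arrdc4 fall outside this rule, and all but Arrdc1 were added after their values were seen. The members and lists were chosen with earlier results of these data known.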

Additional observations from a re-analysis of the deposited data

Results flagged for a closer look

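Probe sets that carry several gene symbols were not used for any gene. Of these, 5 are annotated jointly to Prdx1 and the predicted gene Gm21399, and they gave a signal above the level filter that the comparisons leave out. All 5 were higher on the shLrrfip1a array, with a median difference of 0.26 and a range of 0.20 to 0.42. The highest intensities among them were 4168 against 3638, and the lowest 66.7 against 45.8. These probe sets do not tell the transcripts of the genes apart, so no value is given for Prdx1.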

How the results depend on the processing

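No paired analysis was possible because neither group holds more than 1 array, and no array can be left out. No antioxidant gene was past 2-fold under any of the scalings, filters, pseudocounts and probe set choices run. On the deposited scale at 1.5-fold 1 was higher, and at 1.2-fold 10 were higher and 4 lower. With spike-in scaling 6 were higher at 1.5-fold, and 15 higher and 1 lower at 1.2-fold. Median centring gave 8 higher and 4 lower at 1.2-fold, against 10.0% and 18.6% of all genes. The counts over all genes, 76 higher and 79 lower, came to 116 higher with spike-in scaling, 44 lower with a pseudocount of 64, 48 and 46 when the filter was the 75th percentile, 268 and 282 for a size of 1.5-fold, 28 and 23 at 3-fold, and 1583 and 1545 at 1.2-fold. Spike-in scaling moved the median of the antioxidant genes from 0.05 to 0.21 and that of the NRF2 targets set apart from 0.27 to 0.43; median centring gave -0.01 and 0.21. Of the 35 genes, 3 changed sign with median centring, 1 with quantile normalization, 0 with loess, 7 with spike-in scaling, 3 with the mean over probe sets (Nfe2l2, Prdx4 and Sod1) and 0 with other pseudocounts. Signal near the filter limits Hmox1, and 11 genes rest on 1 probe set each, 4 of them past 1.2-fold (Nqo1, Gpx3, Hmox2 and Mt2).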

Other observations

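Selenoproteins, which carry selenocysteine and include several of the enzymes above, were represented by 20 further genes or genes of their synthesis. None of the 20 reached 2-fold (median -0.01), where 1.35% of all genes did. Selenop, the secreted selenium carrier, read 1988 on the shLrrfip1a array and 1254 on the control array (0.66), Selenoo 0.43 and Selenos 0.39. Among 7 genes of methionine sulfoxide repair and sestrin function the median was 0.28 and none reached 2-fold, with Oxr1 at 0.58, Sesn3 at 0.53 and the methionine sulfoxide reductase Msrb3 at 747 against 523 (0.50).

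Of 14 measured genes of oxidant sources 5 passed the filter. Nox4, an NADPH oxidase that releases hydrogen peroxide, was lower, at 42.0 against 123 (-1.26; -0.82 with a constant of 64), and Aox1, an aldehyde oxidase, was higher, at 185 against 92.2 (0.89; 1.05 with spike-in scaling). Nos3 differed by 0.44. Of 8 genes of heme and bilirubin none reached 2-fold (median -0.13), with the heme synthesis genes Urod at -0.47 and Cpox at -0.36 and the biliverdin reductase Blvrb at -0.34.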
